A study of Homo sapiens with 6 samples.

Results

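The genes described here are 36 components of macroautophagy, the route by which a cell wraps cytoplasm, damaged organelles or microbes in a double membrane and delivers them to the lysosome. They were taken by gene symbol from a list of autophagy machinery and cargo receptors, chosen with earlier results of these data known. Each of the 36 was found once among the 61517 genes of the count table. All 36 were abundant enough to be tested. RNA was sequenced after poly-A selection from THP-1, a human monocytic leukaemia cell line that can be turned into macrophage-like cells. Both groups were described as THP-1 macrophages in which pyroptosis, an inflammatory lytic cell death, had been induced with ATP and LPS. The ruxolitinib group (3 libraries, titled RUX+) was also given a drug that the treatment field spells Lukotinib and the series title spells ruxolitinib, an inhibitor of the kinases JAK1 and JAK2. The control group (3 libraries, titled RUX-) has the treatment field none. The comparison asks how the drug altered transcripts in these stimulated cells. Dose, timing and the means of differentiation are unstated in the labels, and no unstimulated cells were analysed here. Whether the libraries of 1 group are separate cultures is also unstated, so p-values measure the spread between these libraries, possibly a technical one.

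As background, autophagy starts when the ULK kinase complex activates a phosphatidylinositol 3-kinase complex built around PIK3C3 and BECN1. The lipid that this enzyme makes, PI3P, recruits WIPI proteins, while ATG9A vesicles and the ATG2 lipid-transfer proteins feed the growing membrane. Enzymes related to ubiquitin ligases then attach the small ATG8 proteins (the LC3 and GABARAP families) to the membrane, where cargo receptors such as p62 (SQSTM1) and optineurin (OPTN) bind them. The closed autophagosome finally fuses with the lysosome with the help of the SNARE protein syntaxin 17 (STX17). In macrophages this route clears bacteria and damaged mitochondria and is known to restrain inflammasome activity. Much of autophagy is controlled on existing proteins, and transcript levels do not measure its rate.

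Of the 36 autophagy genes, 3 passed in every one of 17 alternative fits. STX17 and OPTN were lower with ruxolitinib, at 0.568 and 0.615 of the control level, and GABARAPL1, an ATG8 gene, was higher at 1.42 times control. The share of all genes tested that passed in every fit was not computed. Some autophagy genes outside the 36, among them TRIM5, BNIP3 and TFEC, also passed in every fit. In all, 12 of the 36 members rose, 2 fell and 22 did not pass (edgeR quasi-likelihood test, Benjamini-Hochberg adjusted p below 0.05). Of all 14051 genes tested, 29.7% passed in either direction, 13.6% higher and 16.1% lower, against 38.9%, 33.3% and 5.56% of the members. The median log2 fold change was 0.17 over the members and -0.01 over all genes tested, and the median size was 0.196 for the members and 0.21 for all genes tested. A log2 fold change below 0.5 in size was found for 32 of the 36 members (88.9%) and for 81.8% of all genes tested. No member reached a log2 fold change of 1 in size, a size that 4.06% of all genes tested had while passing. The levels of the 2 groups did not overlap for 19 members (52.8%), against 44.2% of all genes tested. Libraries carry a batch label, 1, 2 or 3, that pairs a ruxolitinib with a control library. With that number as a block, 5 members rose and 2 fell, which is 19.4% of the members against 20.7% of all genes tested. The 5 were GABARAPL1, ATG7, MAP1LC3B, SQSTM1 and TAX1BP1. Without both libraries of batch 1, the members that passed were GABARAPL1, higher, and OPTN and STX17, lower, or 8.33% of the members against 13.8% of all genes tested. Without batch 2 these shares were 47.2% and 35.6%, and without batch 3 they were 33.3% and 20.6%. The higher count of 12 came to 6 without ruxolitinib replicate 1, 6 without control replicate 1 and 8 without ruxolitinib replicate 2. In either direction these fits called 22.2%, 22.2% and 30.6% of the members, against 20.4%, 22.2% and 25.2% of all genes tested. Without ruxolitinib replicate 3, control replicate 2 or control replicate 3 the higher count was 11, 11 and 10. Those fits called 38.9%, 38.9% and 33.3% of the members, against 26.1%, 29.9% and 22.2% of all genes tested.

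**Figure D1:**
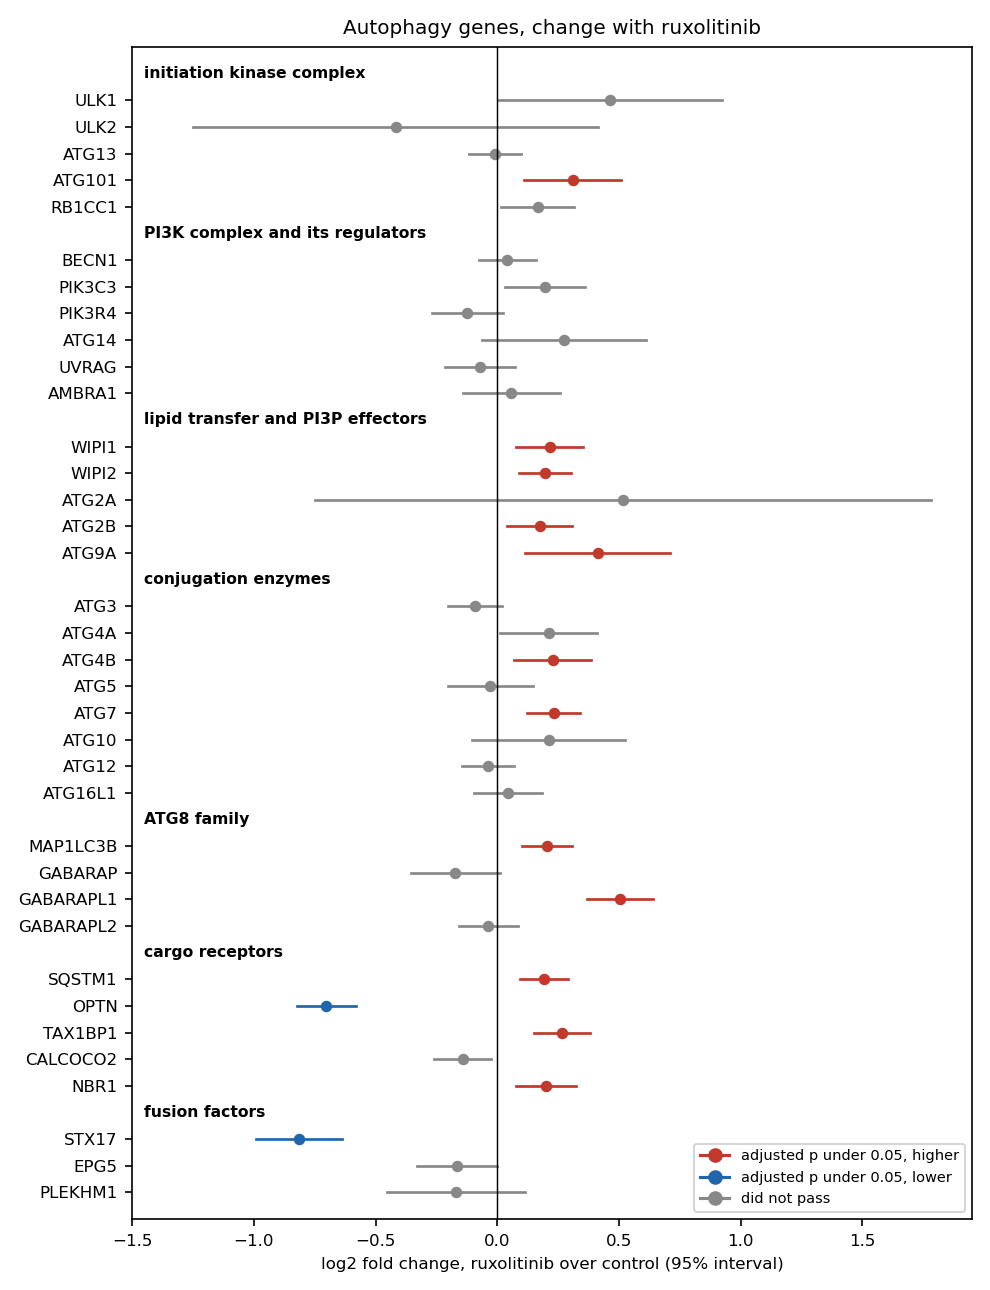
Log2 fold change of each of the 36 members, ruxolitinib over control, with its 95% interval from 3 libraries per group, grouped by role. STX17 (-0.81) and OPTN (-0.70) lie farthest to the left, GABARAPL1 (0.50) is the highest member that passed, and the ATG2A interval is the widest, reaching 1.78.

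Libraries held 17757595 to 24533979 counts in total, 18796476 to 19253534 in the ruxolitinib group and 17757595 to 24533979 in the control group. Levels are given as CPM, counts scaled to a common effective library total. Control replicate 2 had counts for 24798 genes, more than the 21126 to 22675 in the other libraries, and its part in the results below was not tested beyond leaving it out. Mitochondrial transcripts took 3.75% to 6.42% of the ruxolitinib libraries and 5.27% to 5.90% of the control libraries. A set of 16 type I interferon-stimulated genes summed to 189.8 to 208.0 CPM with ruxolitinib and 3378 to 3475 CPM in control. Of 15 macrophage markers, 12 could be tested, of which 10 fell and 1 rose, and together the 15 summed to 787 to 907 CPM with ruxolitinib and 1427 to 1580 CPM in control. Their part in the changes of the autophagy genes was not tested. Since these are bulk samples, fewer cells of a type and less RNA per cell cannot be told apart. Of 8 T cell markers, 4 (CD3D, CD3E, CD3G and TRBC1) had no count in any library, and the 8 summed to 4.72 to 5.91 CPM with ruxolitinib and 5.60 to 6.38 CPM in control, nearly all of it TRAC. The 5 B cell markers summed to 1.45 to 1.61 CPM with ruxolitinib and 1.91 to 2.15 CPM in control, and the 9 fibroblast and epithelial markers to 0.788 to 1.34 CPM with ruxolitinib and 0.958 to 2.11 CPM in control.

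The initiation kinase complex showed 1 rise among 5 genes, or 20% called against 29.7% of all genes tested. ATG101, which stabilises ATG13 in the complex, had 19.6, 19.1 and 17.1 CPM with ruxolitinib (replicates 1 to 3), against 15.5, 13.7 and 16.03 CPM in control. Every ruxolitinib library was above every control library, and the log2 fold change was 0.31 ± 0.09 (SE, n = 3 per group, adjusted p = 0.0243). DESeq2 did not call it (adjusted p = 0.0545), nor did the fit with the batch block (0.0719), nor the fits without ruxolitinib replicate 1 (0.111), ruxolitinib replicate 2 (0.0585) or control replicate 2 (0.0752). An antisense gene covers 42.7% of its exonic bases in GENCODE 29 and itself had 333 counts over the 6 libraries, against 2037 for ATG101, and with no strand setting known their reads cannot be told apart. ULK1, the kinase that starts the process, had 8.93, 7.24 and 10.04 CPM with ruxolitinib and 6.65, 7.85 and 4.48 CPM in control (0.46 ± 0.20, adjusted p = 0.122). Its groups overlapped through control replicate 2, without which the log2 fold change was 0.67 and the gene passed (adjusted p = 0.0143). ULK1 also passed with no filter on low counts (0.00696). The paralogue ULK2 was near the limit of detection, with a mean of 0.516 CPM with ruxolitinib and 0.698 CPM in control and as few as 7 counts in a library. RB1CC1 (FIP200), the scaffold of the complex, averaged 208 ± 20.2 CPM with ruxolitinib and 185 ± 8.80 CPM in control (adjusted p = 0.0965), and it passed without ruxolitinib replicate 3 (log2 fold change 0.24, adjusted p = 0.00977). It also passed with upper-quartile scaling (0.0492) and with no filter on low counts (0.0187). ATG13, the regulatory subunit, differed by less than the spread between replicates, with a log2 fold change of -0.01 and a 95% interval from -0.12 to 0.10.

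None of the 6 genes of the phosphatidylinositol 3-kinase complex and its regulators passed the edgeR test, and 0 passed by DESeq2 or limma-voom. Of all genes tested, edgeR called 29.7%, DESeq2 23.4% and limma-voom 29.1%. PIK3C3 was the 1 gene of the 6 with an unadjusted p under 0.05 by edgeR. PIK3C3, the catalytic subunit, had 51.8, 55.1 and 45.6 CPM with ruxolitinib and 42.4, 43.4 and 47.3 CPM in control, so that 1 ruxolitinib library fell among the controls (log2 fold change 0.20 ± 0.07, adjusted p = 0.0686). It passed without ruxolitinib replicate 3 (adjusted p = 0.0133) or control replicate 3 (0.0453). On all 6 libraries PIK3C3 passed by edgeR with upper-quartile scaling (0.034) and with no filter on low counts (0.0263). BECN1, the scaffold Beclin 1, averaged 87.7 ± 2.87 CPM with ruxolitinib and 85.3 ± 4.34 CPM in control, and the 95% interval of its log2 fold change ran from -0.08 to 0.16. CNTD1 lies opposite 23.5% of the BECN1 exonic bases, with 136 counts against 10531. The remaining log2 fold changes were -0.12 for the kinase-like subunit PIK3R4, 0.27 for ATG14, which directs the complex to autophagosome formation, -0.07 for UVRAG, which replaces ATG14 in an endosomal form of the complex, and 0.06 for AMBRA1, which links the complex to ULK1. Their adjusted p ran from 0.199 to 0.682.

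Of the 5 genes of membrane supply and PI3P effectors, 4 rose, and with the batch block none of the 4 passed. In the main fit that was 80% called against 29.7% of all genes tested. The block called 20.7% of all genes tested. WIPI2, the PI3P-binding protein that recruits ATG16L1, had 90.6, 83.9 and 88.3 CPM with ruxolitinib, against 75.2, 76.8 and 77.6 CPM in control. WIPI1, its close relative, had 84.9, 95.8 and 83.7 CPM with ruxolitinib and 73.8, 73.3 and 80.6 CPM in control. Neither gene's groups overlapped, and the log2 fold changes were 0.19 ± 0.05 for WIPI2 (adjusted p = 0.0107) and 0.22 ± 0.06 for WIPI1 (adjusted p = 0.0233). The WIPI2 call was lost with the batch block (adjusted p = 0.0567) and without ruxolitinib replicate 1 (0.070) or control replicate 1 (0.0545). The WIPI1 call was lost with the block (0.0731) and without ruxolitinib replicate 2 (0.0699), control replicate 1 (0.0856) or control replicate 2 (0.058). ARSG lies opposite 28.5% of the WIPI1 exonic bases, with 647 counts against 9966.

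ATG9A, the transmembrane lipid scramblase that seeds the membrane, had 39.5, 36.4 and 45.9 CPM with ruxolitinib and 26.3, 35.9 and 28.9 CPM in control. Its groups were separated by a narrow gap between ruxolitinib replicate 2 and control replicate 2, which share batch 2. The log2 fold change was 0.41 ± 0.13 (adjusted p = 0.0449). AC068946.2 covers 43.5% of the ATG9A exonic bases on the same strand, with 34 counts against 4322. ATG9A did not pass with the block (adjusted p = 0.0755), with library totals alone (0.0843) and without any library other than control replicate 2 (0.0956, 0.060 and 0.112 without ruxolitinib replicates 1 to 3, 0.0566 and 0.0997 without control replicates 1 and 3). ATG2B, which carries lipids into the growing membrane, had 35.97, 34.5 and 36.1 CPM with ruxolitinib and 30.6, 32.8 and 31.0 CPM in control (0.17 ± 0.06, adjusted p = 0.0493). Although its groups did not overlap, its adjusted p lay just under the threshold and rose to 0.127 by DESeq2, 0.0534 by limma-voom, 0.136 with the block, 0.120 with library totals alone and 0.104 with no filter on low counts, and to 0.148, 0.110, 0.142 and 0.111 without ruxolitinib replicates 1 and 3 and control replicates 1 and 3. GSKIP lies opposite 3.06% of the ATG2B exonic bases, with 2377 counts against 4082. The paralogue ATG2A had 6.04, 4.56 and 6.66 CPM with ruxolitinib and 2.99, 6.97 and 1.91 CPM in control. Control replicate 2 was the highest of all 6 libraries and the other controls the lowest, so the 95% interval of the log2 fold change ran from -0.75 to 1.78 (adjusted p = 0.504). Without control replicate 2 the log2 fold change was 1.25 and ATG2A passed (adjusted p = 5.04e-04).

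The conjugation enzymes split into 2 rises and 6 genes that did not pass, or 25% called against 29.7% of all genes tested. ATG7, the activating enzyme that charges both ATG12 and the ATG8 proteins, had 92.8, 95.2 and 87.8 CPM with ruxolitinib, against 78.5, 76.7 and 79.7 CPM in control. The lowest ruxolitinib library was well above the highest control library (log2 fold change 0.23 ± 0.05, adjusted p = 0.00409, 0.0314 with the block), and the call was lost without both libraries of batch 1 (0.110). VGLL4 lies opposite 32.2% of the ATG7 exonic bases and had 6866 counts against 10333 for ATG7, so part of either gene's reads could belong to the other. ATG4B, the protease that trims ATG8 proteins before and after conjugation, had 42.5, 41.0 and 48.4 CPM with ruxolitinib and 38.6, 38.5 and 35.6 CPM in control (0.23 ± 0.07, adjusted p = 0.0331). THAP4 lies opposite 6.98% of the ATG4B exonic bases, with 1621 counts against 4948. ATG4B did not pass with the block (adjusted p = 0.0969), with library totals alone (0.0751) and without ruxolitinib replicate 1 (0.0651), ruxolitinib replicate 3 (0.121) or control replicate 3 (0.107). The related protease gene ATG4A, on the X chromosome, averaged 14.9 ± 1.08 CPM with ruxolitinib and 12.9 ± 0.531 CPM in control without overlap between the groups, and did not pass (adjusted p = 0.106). ATG10, which joins ATG12 to ATG5, was low, at 4.33 ± 0.138 CPM with ruxolitinib and 3.74 ± 0.181 CPM in control (log2 fold change 0.21, 95% interval -0.10 to 0.53). The genes of the ATG12-ATG5-ATG16L1 complex, the ligase-like assembly that hands ATG8 proteins to the membrane, had log2 fold changes of -0.04, -0.03 and 0.04, and the enzyme gene ATG3, which carries the ATG8 proteins to it, had -0.09. Their 95% intervals lay between -0.20 and 0.18, and ATG3 and ATG5 passed, lower, without both libraries of batch 2 (adjusted p = 0.0403 for ATG3 and 0.0152 for ATG5). AP3S1 lies opposite 8.72% of the ATG12 exonic bases, with 10067 counts against 8739.

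Of the 4 ATG8 genes, 2 rose and 2 did not pass, or 50% called against 29.7% of all genes tested. GABARAPL1 (chromosome 12, 10212458 to 10223130, plus strand, GENCODE 29 on GRCh38) had 51.4, 52.7 and 48.9 CPM with ruxolitinib, against 38.4, 35.02 and 34.7 CPM in control. Every ruxolitinib library exceeded every control library by over 10 CPM, and the log2 fold change was 0.50 ± 0.06 (95% interval 0.37 to 0.64, adjusted p = 7.68e-05). The ratio within a batch was 0.42, 0.59 and 0.50 on the log2 scale for batches 1, 2 and 3, and over the 17 alternative settings the fitted value stayed between 0.46 and 0.56 and passed each time. Another ATG8 gene, GABARAPL2 (GATE-16, chromosome 16, 75566351 to 75577881, plus strand), had 93.4, 99.0 and 88.9 CPM with ruxolitinib and 100.8, 93.9 and 94.0 CPM in control, with overlapping groups (log2 fold change -0.04 ± 0.05, 95% interval -0.16 to 0.08). Within a library, where no scaling enters, there were 0.550, 0.533 and 0.550 GABARAPL1 counts per GABARAPL2 count with ruxolitinib, against 0.381, 0.373 and 0.369 in control. The means were 0.545 ± 0.0102 with ruxolitinib and 0.375 ± 0.00612 in control (SD, n = 3 each). A two-sided exact permutation test gave p = 0.1, the minimum for 3 libraries a group, for a ratio chosen after its values were seen. GABARAP, the founding member of its subfamily, had 81.7, 68.3 and 87.6 CPM with ruxolitinib and 91.9, 87.1 and 88.9 CPM in control (-0.17 ± 0.08, adjusted p = 0.144). Its ruxolitinib replicate 2 was the lowest of the 6 libraries, and the gene passed without ruxolitinib replicate 3 (log2 fold change -0.25, adjusted p = 0.0291). GABARAP also passed with no filter on low counts (0.033). AC120057.2 covers 30.5% of the GABARAP exonic bases on the same strand, with 446 counts against 10326. MAP1LC3B, which encodes LC3B, the usual marker of autophagosomes, had 258.0, 267 and 246.5 CPM with ruxolitinib and 226, 216 and 228 CPM in control. Its groups did not overlap (0.21 ± 0.05, adjusted p = 0.0061, 0.046 with the block), and the call was lost without both libraries of batch 1 (0.126). The near-identical gene MAP1LC3B2 had 283 counts against 29170, or 0.97%.

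Promoters are printed for GABARAPL1, which rose, for GABARAPL2, which did not pass, for OPTN, which fell, and for ATG3, which did not pass, because they set members with and without the searched letters side by side. Each runs from 250 bases before to 50 bases after a RefSeq transcription start on GRCh38.p14, and capitals mark a match to CACGTG (the E-box core bound by the MiT/TFE factors, which drive lysosomal and autophagy genes), TTCNNNGAA (the element that STAT dimers bind) or the interferon response element (GAAA, any 2 bases, GAAA), searched on both strands.
GABARAPL1 promoter, chr12:10212627-10212926, plus strand: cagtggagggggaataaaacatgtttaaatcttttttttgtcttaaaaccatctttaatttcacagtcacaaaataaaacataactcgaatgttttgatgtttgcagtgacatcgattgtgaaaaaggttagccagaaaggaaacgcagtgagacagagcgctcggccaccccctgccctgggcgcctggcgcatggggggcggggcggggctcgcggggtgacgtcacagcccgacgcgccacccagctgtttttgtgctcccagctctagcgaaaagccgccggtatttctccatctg
GABARAPL2 promoter, chr16:75566129-75566428, plus strand: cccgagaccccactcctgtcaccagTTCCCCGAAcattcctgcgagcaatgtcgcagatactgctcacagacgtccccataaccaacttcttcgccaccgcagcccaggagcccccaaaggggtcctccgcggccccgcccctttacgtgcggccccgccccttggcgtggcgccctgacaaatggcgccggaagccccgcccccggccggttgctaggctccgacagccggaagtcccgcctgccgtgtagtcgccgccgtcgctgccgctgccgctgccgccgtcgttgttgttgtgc
OPTN promoter, chr10:13099832-13100131, plus strand: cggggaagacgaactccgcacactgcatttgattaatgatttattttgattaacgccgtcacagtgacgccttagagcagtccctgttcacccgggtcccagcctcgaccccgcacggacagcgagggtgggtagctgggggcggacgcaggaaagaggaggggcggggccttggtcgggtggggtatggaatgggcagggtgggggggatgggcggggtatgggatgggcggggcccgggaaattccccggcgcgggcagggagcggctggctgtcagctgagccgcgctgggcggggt
ATG3 promoter, chr3:112561913-112562212, minus strand: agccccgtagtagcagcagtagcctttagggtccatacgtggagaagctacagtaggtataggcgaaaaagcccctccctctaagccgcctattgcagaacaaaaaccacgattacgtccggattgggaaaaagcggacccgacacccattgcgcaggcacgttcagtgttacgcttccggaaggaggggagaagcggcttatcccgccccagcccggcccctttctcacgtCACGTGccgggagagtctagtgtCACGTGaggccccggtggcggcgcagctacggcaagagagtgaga
Of the 36 members, 32 had a RefSeq promoter, 40 windows in all, and STX17 had none. The E-box core was in 2 of the 40 windows (5%), those of ATG14 and ATG3, against 7.26% of all 35116 promoters. The STAT element was in 3 of the 40 windows (7.5%), those of AMBRA1, ATG5 and GABARAPL2, against 7.66% of all promoters. The interferon response element was in none of the 40, against 3.57% of all promoters. Of the 14868 promoters of tested genes, 9.19% held the E-box core, 6.44% the STAT element and 3.11% the interferon response element. None of the members with a window that passed the test held any of the 3 in these windows, and no match says only that these letters are not there.

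Among the cargo receptors 3 rose, 1 fell and 1 did not pass, or 80% called against 29.7% of all genes tested. OPTN, the receptor for ubiquitin-coated bacteria and mitochondria (chromosome 10, 13099449 to 13138308, plus strand), had 41.1, 43.0 and 39.4 CPM with ruxolitinib, against 66.8, 65.1 and 69.1 CPM in control. The groups were far apart relative to their spread, with a log2 fold change of -0.70 ± 0.06 (95% interval -0.82 to -0.58, adjusted p = 2.09e-06). The log2 ratios within batches 1 to 3 were -0.70, -0.60 and -0.81, and all 17 alternative settings kept the call, between -0.76 and -0.65. TAX1BP1, which shares with OPTN the binding of ubiquitin and of ATG8 proteins, rose, with 271, 279 and 250.01 CPM with ruxolitinib and 225, 212 and 229.5 CPM in control. Its log2 fold change was 0.26 ± 0.05 (adjusted p = 0.00258, 0.0228 with the block), and the call was lost without both libraries of batch 1 (0.080). OPTN counts per TAX1BP1 count, a ratio chosen after its values were seen, were 0.152, 0.154 and 0.158 with ruxolitinib and 0.297, 0.307 and 0.301 in control (exact two-sided permutation p = 0.1, the smallest possible).

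SQSTM1, which encodes p62 and is also induced by NRF2, had 555, 578 and 534 CPM with ruxolitinib, against 474, 493.5 and 491 CPM in control. It was the highest member per length in both groups, at 159.8 CPM per kilobase of exon with ruxolitinib and 139.8 in control. MRNIP lies opposite 39.8% of its exonic bases, with 1455 counts against 63380. The groups did not overlap (log2 fold change 0.19 ± 0.05, adjusted p = 0.0071, 0.0486 with the block), and the call was lost without control replicate 1 (0.051) and when batch 1 was left out (0.194). NBR1, a receptor that works beside p62 in gathering ubiquitin-tagged protein, had 149.9, 160.4 and 140.3 CPM with ruxolitinib and 129, 126 and 137 CPM in control. The lowest ruxolitinib library stood only slightly above the highest control library (0.20 ± 0.06, adjusted p = 0.0188), and the call was lost with the block (0.0776) and without ruxolitinib replicates 1 (0.0681) or 2 (0.0503) or control replicates 1 (0.0714) or 2 (0.0504). AC060780.1 lies opposite 2.59% of the NBR1 exonic bases, with 649 counts against 17064. CALCOCO2 (NDP52), a receptor for invading bacteria, had 87.1, 90.9 and 83.5 CPM with ruxolitinib and 99.8, 91.4 and 97.5 CPM in control (-0.14 ± 0.05, adjusted p = 0.0653). Its groups did not overlap, and it passed without ruxolitinib replicate 2 (adjusted p = 0.0372), without control replicate 2 (0.0254) and with library totals alone (0.017).

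**Figure D2:**
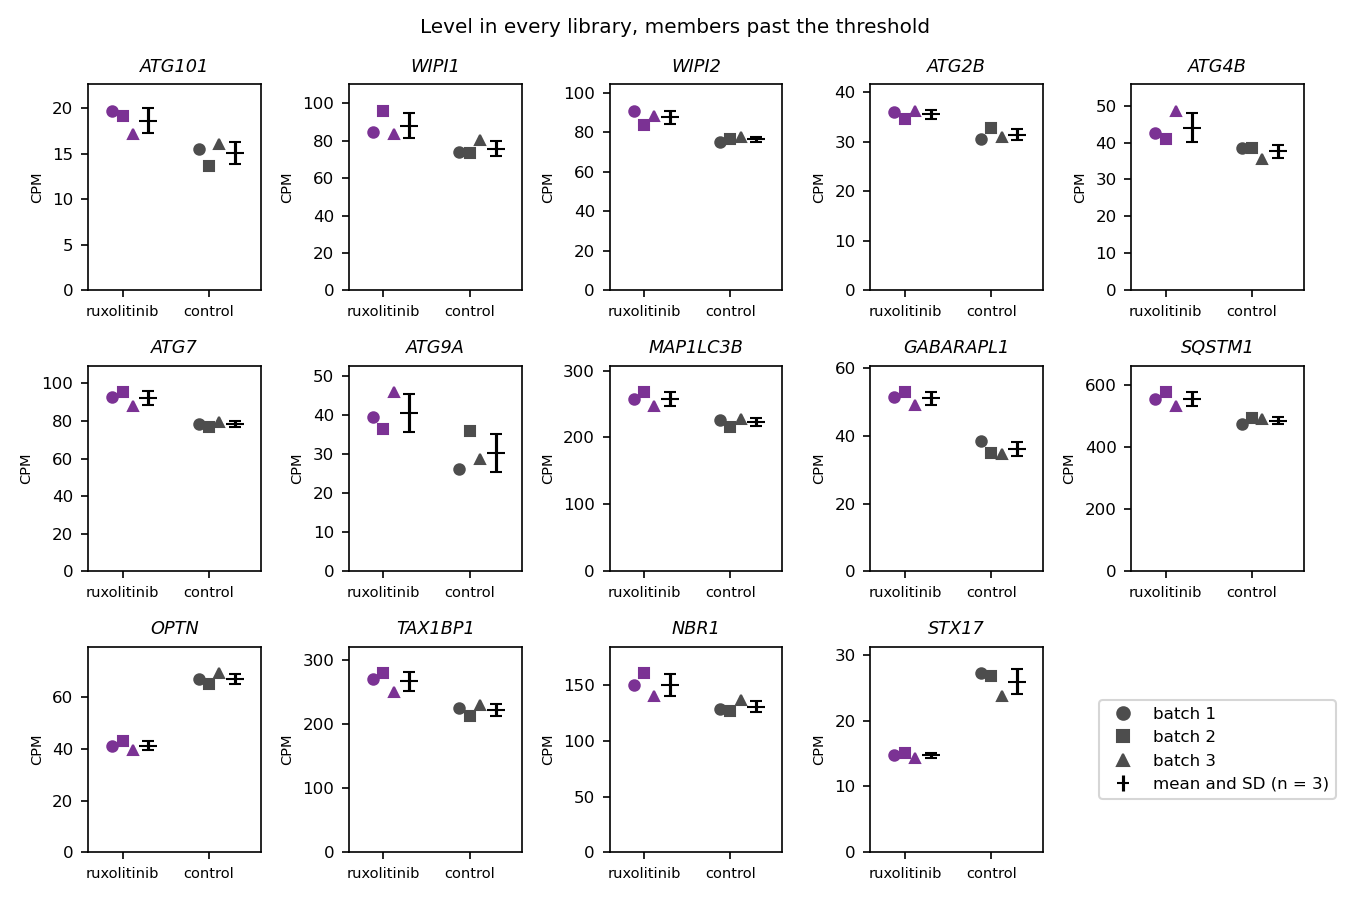
Level in CPM in every library for the 14 members that passed, with ruxolitinib (purple) left of control (grey), symbols for the batch number and bars for mean and SD over 3 libraries. OPTN and STX17 sit lower with ruxolitinib, the other 12 sit higher, and GABARAPL1 has the smallest adjusted p of those 12 (7.68e-05).

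The fusion factors had 1 fall and no rise among 3 genes, or 33.3% called against 29.7% of all genes tested. STX17, the SNARE that brings the finished autophagosome to the lysosome (chromosome 9, 99906633 to 99970341, plus strand), had 14.8, 15.01 and 14.3 CPM with ruxolitinib, against 27.1, 26.8 and 23.7 CPM in control. Every ruxolitinib library was below every control library, with a log2 fold change of -0.81 ± 0.08 (95% interval -0.99 to -0.64, adjusted p = 1.21e-05), the largest change among the 36. The log2 ratios within batches 1 to 3 were -0.88, -0.84 and -0.73, and all 17 alternative settings kept the call, between -0.86 and -0.77. An antisense gene shares 4.3% of its exonic bases and had 8 counts against 2528. STX17 counts per count of SNAP29, the SNARE that pairs with it, were 0.219, 0.223 and 0.215 with ruxolitinib and 0.413, 0.417 and 0.331 in control, a ratio chosen after its values were seen (exact two-sided permutation p = 0.1, the smallest possible). EPG5, a tether that gives fusion its specificity, had 23.2, 20.9 and 24.4 CPM with ruxolitinib and 26.2, 25.2 and 25.4 CPM in control, without overlap (-0.17 ± 0.08, adjusted p = 0.121). PLEKHM1, an adaptor between RAB7, the HOPS complex and ATG8 proteins, had 26.5, 23.7 and 29.8 CPM with ruxolitinib and 26.9, 35.4 and 27.3 CPM in control (-0.17 ± 0.12, adjusted p = 0.35). Reads of its pseudogene copy PLEKHM1P1, 887 counts against 3497, may be split between both loci.

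**Figure D3:**
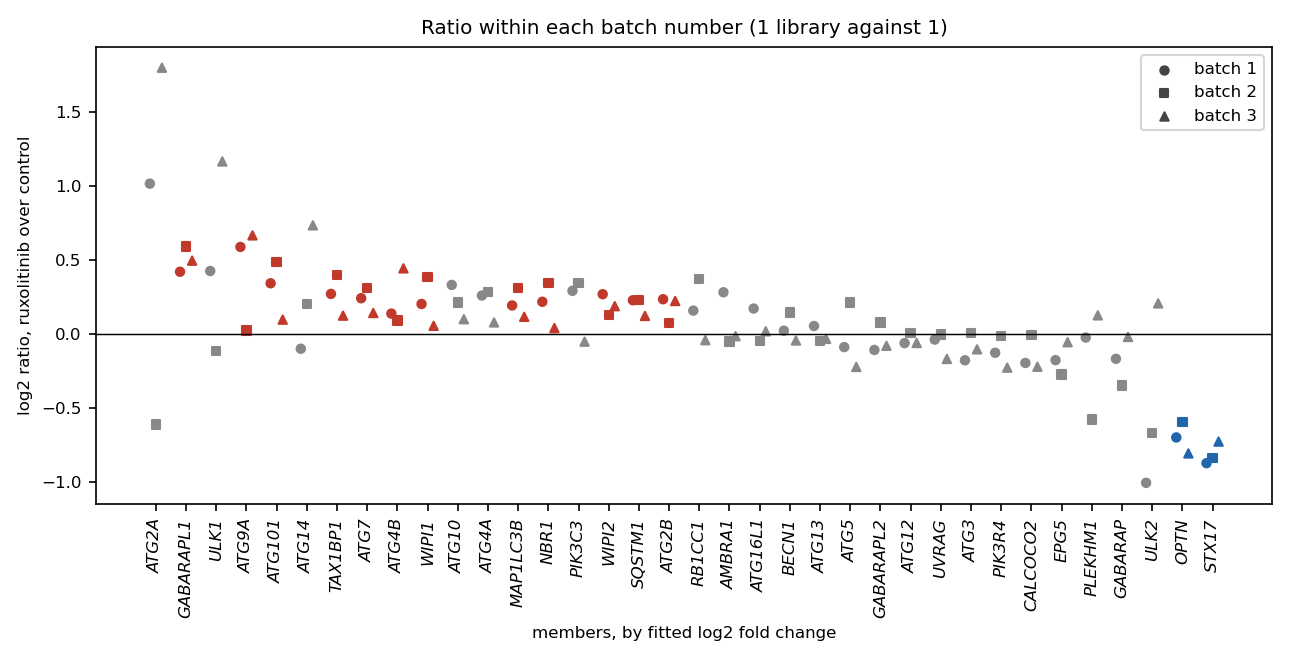
Log2 ratio of ruxolitinib over control within each batch number (1 library against 1) for the 36 members, ordered by fitted log2 fold change and coloured as higher (red), lower (blue) or did not pass (grey). The 3 points of OPTN and of STX17 lie below -0.5, those of GABARAPL1 above 0.4, while those of ATG2A spread from -0.61 to 1.80.

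All 14 members that passed had 1 sign in the 3 batches, which the test itself favours, as had 7 of the 22 that did not pass. The share of all genes tested with 1 sign was not computed, so these counts say nothing particular about the members. Levels can be compared between genes per length. With ruxolitinib SQSTM1 was followed by MAP1LC3B (85.3 CPM per kilobase), TAX1BP1 (71.3) and GABARAPL2 (68.8), and in control by MAP1LC3B (74.0), GABARAPL2 (70.6) and TAX1BP1 (59.4). OPTN was ranked 20 of 36 with ruxolitinib and 14 in control, STX17 27 and 22, and GABARAPL1 15 and 18. The lowest were ATG2A (0.905 with ruxolitinib and 0.623 in control) and ULK2 (0.0823 and 0.111).

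Other genes of the route, in 6 lists of 104 genes of which 99 could be tested, numbered 14 higher (14.1%) and 23 lower (23.2%), against 13.6% and 16.1% of all genes tested. DESeq2 gave 14 higher and 15 lower, and edgeR with the batch block 9 higher and 14 lower. Of all genes tested, DESeq2 called 23.4% and the block 20.7% in either direction, against 29.7% in the main fit. Among 12 tested genes of initiation and nucleation, 4 rose and 1 fell. WDR45B (WIPI3) rose by 0.35 ± 0.05 on the log2 scale (adjusted p = 1.95e-04), EI24, an endoplasmic reticulum protein needed for autophagosome maturation, by 0.33 ± 0.05, and TBK1, the kinase that phosphorylates OPTN and p62, by 0.26 ± 0.06 (adjusted p = 0.00725, and 0.132 when batch 1 was left out). RUBCN (Rubicon), an inhibitor of autophagosome maturation that is needed for LC3-associated phagocytosis, was at 15.96 ± 2.11 CPM with ruxolitinib and 23.2 ± 3.05 CPM in control, with a log2 fold change of -0.54 ± 0.12 (adjusted p = 0.00499). Of 8 other conjugation genes, 0 passed by edgeR, DESeq2 or limma-voom, and 0 had an unadjusted p under 0.05. Of 17 further fusion genes, 2 rose and 5 fell, while DESeq2 gave 2 higher and 2 lower and the block 1 higher and 2 lower. LAMP2, a lysosomal membrane protein, averaged 298 ± 10.6 CPM with ruxolitinib and 375 ± 14.6 CPM in control (-0.33 ± 0.05), and VPS41, a HOPS tethering subunit, 22.2 ± 0.657 CPM with ruxolitinib and 30.6 ± 2.56 CPM in control (-0.47 ± 0.08). TBC1D15, a RAB7 GTPase-activating protein, rose by 0.26 ± 0.05 (adjusted p = 0.0843 without both libraries of batch 1). VAMP8, the lysosomal SNARE that pairs with STX17, had -0.20 ± 0.05 (adjusted p = 0.0135), a call lost by DESeq2 (0.0637), with the block (0.0621), and without ruxolitinib replicate 1 (0.0823), control replicate 1 (0.0589) or control replicate 3 (0.0945).

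Of 21 tested further genes of selective autophagy, 4 rose and 6 fell, against 2 higher and 5 lower with the block. The falls were led by TRIM5 (-1.61 ± 0.10) and TRIM21 (-1.39 ± 0.06), antiviral ubiquitin ligases with receptor functions that are also interferon-induced, and included WDFY3 (ALFY), an adaptor for aggregates, at -0.37 ± 0.05. BNIP3, a mitophagy receptor that is also a hypoxia target, averaged 195 ± 9.47 CPM with ruxolitinib and 128 ± 6.96 CPM in control (0.61 ± 0.05, adjusted p = 5.73e-06). Among 33 genes of MTOR and AMPK control, 3 rose and 8 fell, or 33.3% against 29.7% of all genes tested. DESeq2 gave 4 higher and 4 lower and the block 2 higher and 4 lower. Of all genes tested, 23.4% passed by DESeq2 and 20.7% with the block. FNIP2, a partner of folliculin, had -0.65 ± 0.05 and RICTOR, a subunit of MTOR complex 2, -0.36 ± 0.04, while DDIT4 (REDD1), a stress-induced MTOR inhibitor, averaged 229.8 ± 4.37 CPM with ruxolitinib and 164 ± 4.52 CPM in control (0.48 ± 0.04). PRKAG1, an AMPK subunit, rose by 0.33 ± 0.07 (adjusted p = 0.107 without both libraries of batch 1).

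Of 8 MiT/TFE and FOXO factor genes, transcription factors that act on autophagy and lysosomal genes, 1 rose and 3 fell. That was 50% of only 8 genes, against 29.7% of all genes tested. With the batch block 1 rose and 2 fell, in a fit that called 20.7% of all genes tested. TFEC, a macrophage member of the MiT/TFE family, averaged 122 ± 1.72 CPM with ruxolitinib and 178 ± 2.73 CPM in control (-0.54 ± 0.04), and MITF, another member, 9.27 ± 0.974 CPM with ruxolitinib and 14.99 ± 0.628 CPM in control (-0.69 ± 0.10). TFEB, named after its value was seen, had 3.71 CPM with ruxolitinib and 2.49 CPM in control (0.56 ± 0.21, adjusted p = 0.0584). FOXO1 rose by 0.73 ± 0.18 on the log2 scale, at means of 4.38 CPM with ruxolitinib and 2.67 CPM in control (adjusted p = 0.00879, 0.0661 without both libraries of batch 1). FOXO3 had -0.16 ± 0.04 (adjusted p = 0.0141), a call lost with the block (0.0848) and without ruxolitinib replicate 1 (0.0805), control replicate 1 (0.0764) or control replicate 3 (0.127).

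**Figure D4:**
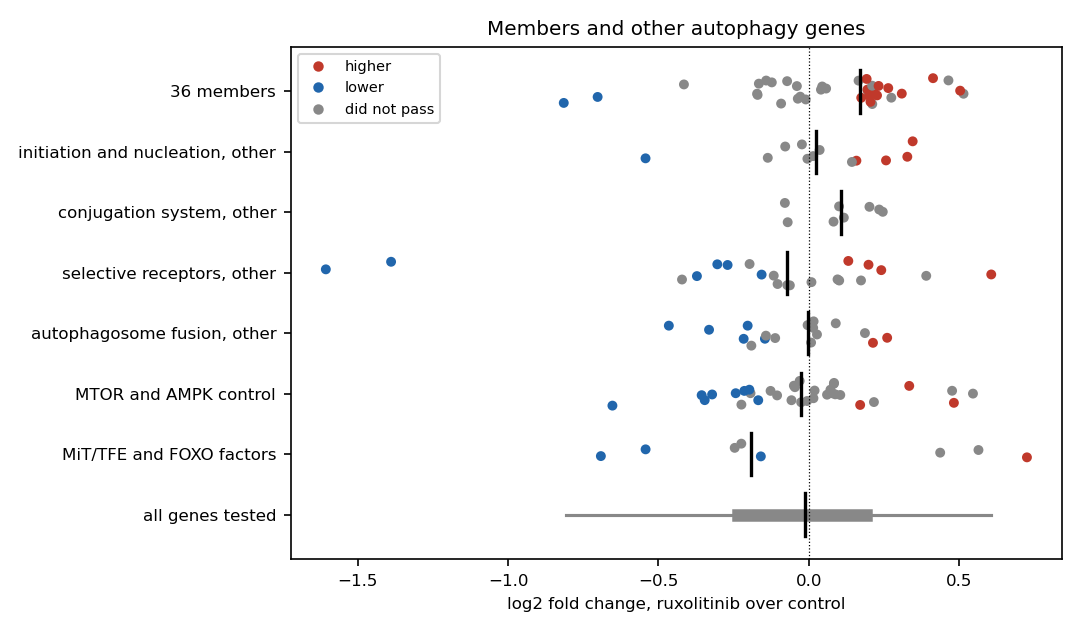
Log2 fold change, ruxolitinib over control, of the tested genes among the 36 members and 6 lists of related genes, with a vertical bar at each median, and for all 14051 genes tested the middle 50% (thick) and 90% (thin). The median is 0.17 for the members and -0.01 for all genes tested, and TRIM5 and TRIM21 lie farthest to the left among the related genes.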

How the data were processed

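The authors deposited whole-number counts for 61517 genes in 6 THP-1 libraries, with no normalization. Per the submitters' processing notes the build is hg38; aligner, counter, annotation and strand are not stated there. Groups came from the sample titles. The 36 members and the lists of related genes were chosen with earlier results of these data known. Counts were tested with edgeR 4.0.16 in R 4.3.3 (robust glmQLFit, glmQLFTest, TMM factors, filterByExpr keeping genes by minimum count 10 and total 15), with Benjamini-Hochberg adjustment over 14051 genes and a threshold of 0.05. Standard errors were computed from the log2 fold change and its F statistic, and levels are mean ± SD over 3 libraries. A count of 0 allows up to 0.12 to 0.169 CPM (3 counts, counting error only).

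All members are accounted for. From each related list, up to 4 genes past the threshold with the smallest adjusted p were named, and TFEB was added after its value was seen. Alternatives were median-ratio and upper-quartile scaling, library totals alone, 2 other filters, DESeq2 1.42.0 and limma-voom (limma 3.58.1). The batch block and leaving out each library or batch were the others. The batch label pairs the libraries. Over genes, the departures of paired libraries from their group means correlated at -0.02, -0.19 and -0.10, none of them positive. For members whose call was lost with the block, the fitted log2 fold change hardly moved. It was 0.195 in the main fit and 0.194 with the block for WIPI2, and 0.413 and 0.422 for ATG9A. Exon lengths and overlaps came from GENCODE 29 basic transcripts (GRCh38), and promoters from RefSeq (GRCh38.p14). A planned comparison of ATG8 protein sequences was not made. The edgeR procedure was tested on simulated data.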

Additional observations from a re-analysis of the deposited data

How the results depend on the processing

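With the batch number as a replicate block, 5 members rose and 2 fell, and of the related genes 9 rose and 14 fell. That fit called 19.4% of the members and 20.7% of all genes tested. By DESeq2, 10 members rose and 2 fell, and of the related genes 14 rose and 15 fell, against 14 and 23 by edgeR. DESeq2 called 33.3% of the members and 23.4% of all genes tested, against 38.9% and 29.7% by edgeR. Scaling by median ratios, upper quartiles or totals alone gave 12, 14 and 9 members higher and 2, 2 and 3 lower. In either direction that was 38.9%, 44.4% and 33.3% of the members, against 29.3%, 30.4% and 29.9% of all genes tested. Leaving out a library or both libraries of a batch gave 1 to 12 members higher and 2 to 5 lower, 4 to 23 related genes higher and 11 to 26 lower, and 840 to 2553 of all genes higher and 1143 to 2481 lower. Members higher numbered 6 without ruxolitinib replicate 1 and 6 without control replicate 1, and related genes lower 25 without control replicate 2. The lowest of the higher counts came without batch 1. Without batch 2 or batch 3, at the same number of libraries, 12 and 10 members were higher. Without batches 1, 2 and 3, 8.33%, 47.2% and 33.3% of the members passed in either direction, against 13.8%, 35.6% and 20.6% of all genes tested. The cause was not tested. GABARAPL1, OPTN and STX17 kept their calls under all 17 alternatives, and MAP1LC3B, ATG7 and TAX1BP1 under all but 1, the fit without batch 1. Of the 22 members that did not pass, 14 did not pass under any alternative, and no called gene named here changed sign. The means of ULK2, ATG2A, ATG10, ATG14 and ULK1 were under 10 CPM in both groups, so low counts may limit them. ATG2A and ULK1 passed by edgeR without control replicate 2 (adjusted p = 5.04e-04 and 0.0143).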
